A study of Mus musculus with 10 samples.

Results

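The vacuolar proton pump (V-ATPase) and the zinc transporters of the SLC30 and SLC39 families were examined in GUCY2Chi and GUCY2Cmed cells of the small intestine. Every protein-coding gene whose symbol begins with Atp6v, Atp6ap, or Slc30a or Slc39a followed by a number was taken, which gave 50 of the 54532 genes counted (22046 of them protein-coding). These were 26 genes of the pump (13 of the V1 sector, 9 of the V0 sector, 3 accessory genes and Atp6v1fnb, whose name places it next to a pump gene) and 24 zinc transporter genes (10 SLC30 and 14 SLC39). The cells came from 5 litter-matched Gucy2c-GFP mice of the CD1/ICR stock aged 10 weeks, in which the Gucy2c promoter drives GFP, and no treatment was given to either group. From each mouse, 20000 cells with high fluorescence formed the GUCY2Chi sample and 20000 with medium fluorescence the GUCY2Cmed sample, also named Lo, for 5 libraries per group. The gates were set on reporter brightness and not on a cell type marker, so each library held a mixture of cells, and a difference in cells of a type and a difference in RNA per cell cannot be told apart.

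The V-ATPase pumps protons into lysosomes, endosomes and secretory granules. Its cytosolic V1 sector splits ATP, and its membrane V0 sector carries the protons across. The acid interior and the voltage it makes drive the processing of hormones, the loading of amines into granules and the breakdown of proteins in lysosomes. Zinc transporters work against each other across the same membranes. The SLC30 proteins (ZnT) move zinc out of the cytosol, into granules, the Golgi or the outside, and the SLC39 proteins (ZIP) move it into the cytosol. In the gut, SLC39A4 takes up dietary zinc at the apical membrane of enterocytes. In pancreatic beta cells, SLC30A8 fills the insulin granule with zinc.

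Library totals ran from 10903958 to 15307932 reads assigned to genes. The test took the 15703 genes with more than 0.5 cpm (read counts scaled to a common library size) in at least 3 libraries, and it called a gene at a Benjamini-Hochberg adjusted p under 0.01 from edgeR's quasi-likelihood test over all of them. Levels are cpm after TMM normalization, with the SD over the 5 libraries of a group, and values of single libraries are given for mice 2, 7, 12, 14 and 15, in that order. These numbers come from the sample titles and were taken to name the mice. Values by mouse and fits with the mouse as block rest on that reading. Of 19 enteroendocrine marker genes, 18 were higher in GUCY2Chi cells, and their summed level was 41199 to 163490 cpm against 158 to 460.2 cpm in GUCY2Cmed cells. The summed level of 16 enterocyte markers in GUCY2Chi cells was 5.62%, 5.70%, 45.4%, 6.36% and 42.7% of that in GUCY2Cmed cells of the same mouse, so the GUCY2Chi libraries of mice 12 and 15 stood apart in this sum. The libraries also differed in Paneth markers (699%, 54.5%, 102%, 268% and 51.8%) and goblet markers (371%, 115%, 163%, 50.7% and 71.4%). Leaving out mice 12 and 15 does not remove those differences. Of 12 proliferation markers 10 were lower in GUCY2Chi cells (0 with the mouse as block in edgeR), and of 4 mesenchyme markers tested 3 were higher, with a summed level of 40.8 to 230.6 against 0.803 to 9.91 cpm, and the part of these in the results was not tested. Forebrain neuron genes also had counts in every library and varied from library to library in both groups. Beside each called pump or zinc transporter gene, the call or value without mice 12 and 15 is given. Among genes of the further lists it is given for Gla only.

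Of the 50 genes, 42 passed the filter on low counts. Higher in GUCY2Chi cells were 9 of them, beside 13.9% of all genes tested, and lower were 2, beside 8.79%. The other 31 did not pass the threshold. By group, 5 of 20 pump genes were higher and 1 was lower, and 4 of 22 zinc transporter genes were higher and 1 was lower. Of the 5, Atp6v1c2 passed the filter only through the GUCY2Chi libraries, so its direction was favoured on entry. The median log2 fold change (GUCY2Chi over GUCY2Cmed) was 0.50 for the pump genes and -0.18 for the zinc transporters (0.78 and 0.10 without TMM factors), beside 0.09 for all genes tested, 54.6% of which lay above 0. Without TMM factors the median of all genes was 0.39, and 14 of the 42 were higher and 1 lower (10 and 1 pump genes, 4 and 0 zinc transporters), beside 18.5% and 3.55% of all genes. With the mouse as a block in the edgeR fit, 6 were higher and 6 lower, beside 8.24% and 4.96%, and without mice 12 and 15 the numbers were 6 and 7, beside 11.7% and 10.7%. In both of these fits the pump had 2 genes higher and 1 lower, whereas the zinc transporters had 4 higher and 5 lower with the block, and 4 higher and 6 lower without the 2 mice.

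**Figure D1:**
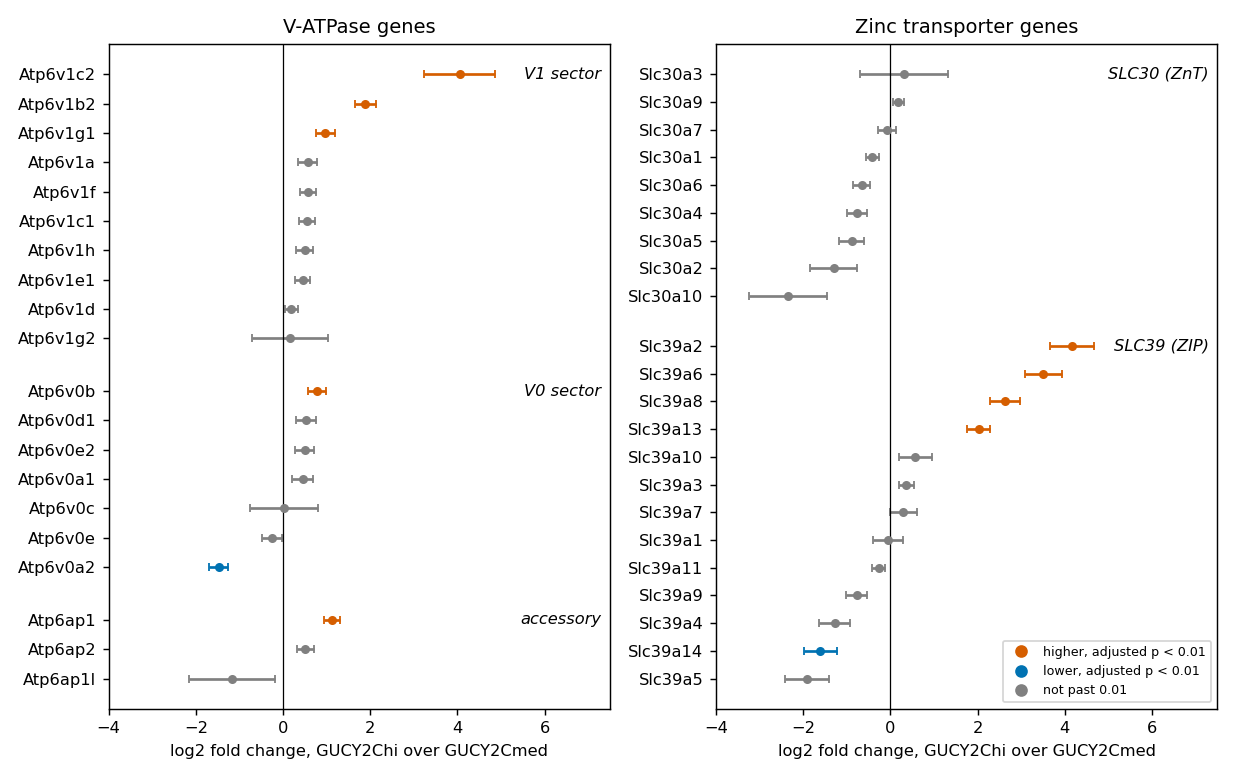
Fitted log2 fold changes of the 42 genes tested, by sector or family, with bars of 1 standard error; orange and blue points passed the adjusted p of 0.01. All 10 V1 genes lie above 0, of which Atp6v1c2 passed the filter only through the GUCY2Chi libraries. In V0, 5 of the 7 genes lie above 0. Of the 9 SLC30 genes, 7 lie below 0 (6 without TMM factors), none of which passed.

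Promoter sequence is shown for the members whose 250 bases before the start hold CACGTG, the core of the element through which TFEB and related factors act on lysosomal genes and which many other factors also bind. Sequences are those of RefSeq on GRCm38.p6, 5′ to 3′ on the gene's strand, with CACGTG in capitals. Atp6v0b, at chr4:117887330-117887579 on the minus strand, holds it at 36 and 18 bases before the start, counted to its first base. Atp6v1a, at chr16:44139260-44139509 on the minus strand, holds it at 131 bases, and Slc30a5, at chr13:100833428-100833677 on the minus strand, at 61 bases.
Atp6v0b: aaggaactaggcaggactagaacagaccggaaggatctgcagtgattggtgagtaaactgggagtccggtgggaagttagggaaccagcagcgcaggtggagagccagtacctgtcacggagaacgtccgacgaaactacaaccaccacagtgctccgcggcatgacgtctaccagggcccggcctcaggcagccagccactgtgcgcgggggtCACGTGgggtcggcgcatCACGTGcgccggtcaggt
Atp6v1a: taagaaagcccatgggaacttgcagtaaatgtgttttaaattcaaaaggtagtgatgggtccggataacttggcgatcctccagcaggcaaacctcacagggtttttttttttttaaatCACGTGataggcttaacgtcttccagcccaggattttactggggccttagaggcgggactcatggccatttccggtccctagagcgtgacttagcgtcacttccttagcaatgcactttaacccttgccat
Slc30a5: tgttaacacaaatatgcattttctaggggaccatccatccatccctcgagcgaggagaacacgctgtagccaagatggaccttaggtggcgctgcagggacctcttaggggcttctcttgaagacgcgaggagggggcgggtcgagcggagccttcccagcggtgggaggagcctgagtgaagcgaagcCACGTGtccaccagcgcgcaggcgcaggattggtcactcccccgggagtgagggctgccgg
Slc39a8 also holds the motif, before the second of its annotated starts. Of the 3 genes printed, Atp6v0b passed the test at 0.01, and Slc39a8, not printed, passed as well. No promoter sequence was found for the called genes Atp6v1b2, Atp6v1g1, Atp6v0a2, Slc39a6 and Slc39a14, so these were not searched. In windows from 250 bases before to 50 bases after a start, CACGTG (read on both strands) was in 4 of 19 pump genes and 3 of 20 zinc transporter genes that had a window. Counted by window, it was in 4 of 22 and 3 of 25, beside 7.15% of all 32851 windows. The other 3 pump genes were Atp6v0d1, Atp6v0e and Atp6v1a, and none of them was called. The cores of the metal response element, searched as TGCGCNC and TGCACNC on both strands, were in 12 and 8 of the 39 genes. Counted by window, they were in 12 and 8 of 47, beside 15.4% and 12.6% of all windows. A gene may have several windows, and a match is a run of letters, not a site shown to be bound.

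The V1 sector had 10 genes tested, all with fold changes above 0, and 3 were higher in GUCY2Chi cells. Of the 3, Atp6v1c2 passed the filter only through the GUCY2Chi libraries. The summed V1 level was 1839, 1884, 1745, 2542 and 1785 cpm in GUCY2Chi and 1103, 1112, 1261, 1225 and 1081 cpm in GUCY2Cmed libraries. The groups did not overlap, and 0 V1 genes were lower at an unadjusted p under 0.05, in DESeq2 or in limma-voom. In the same mice the summed V0 level in GUCY2Chi cells was 101%, 111%, 116%, 119% and 107% of that in GUCY2Cmed cells, and its groups overlapped. Without TMM factors the V0 share was 113% to 155%. By gene, the sectors were closer than by sum. The median log2 fold change was 0.55 for V1 and 0.45 for V0, with 5 of 7 V0 genes above 0. For the accessory genes it was 0.51, with 2 of 3 above 0.

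Atp6v1b2 encodes the B2 subunit, which with subunit A forms the ATP-splitting head. It lies on chromosome 8 from 69088646 to 69113711 (ENSMUSG00000006273). It was at 456, 452, 331, 670 and 266 cpm in GUCY2Chi libraries and at 133, 102, 114, 119 and 121 cpm in GUCY2Cmed libraries. The lowest GUCY2Chi library was above the highest GUCY2Cmed library. GUCY2Chi cells exceeded GUCY2Cmed cells by 1.89 on the log2 scale (SE, the standard error, 0.24, adjusted p = 2.14e-04 by edgeR), and the call stood whichever of the 10 libraries was left out. Without mice 12 and 15 the difference was 2.16 (adjusted p = 5.57e-04 by edgeR). Atp6v1b2 has a neighbour on the other strand. Its first 590 bases overlap the start of Slc18a1 on the other strand, which encodes the amine transporter VMAT1 that the pump powers and which was at 209 to 773 cpm in GUCY2Chi against 14.9 to 24.0 cpm in GUCY2Cmed cells. The NCBIM37 annotation gives the pair 0 exonic bases in common, and the strand setting of the counting is not given in the sources used here. The kidney and inner ear form of the subunit, Atp6v1b1, had 1 count in all 10 libraries.

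Atp6v1g1 encodes subunit G of the peripheral stalk. Its levels were 343, 333, 328, 526 and 246 cpm in GUCY2Chi against 147, 228, 167, 198 and 167 cpm in GUCY2Cmed libraries. No GUCY2Chi library was as low as the highest GUCY2Cmed one. The difference on the log2 scale was 0.97 (SE 0.22, adjusted p = 0.00562 by edgeR). The call was lost without the GUCY2Chi library of mouse 14 (adjusted p = 0.0110) and without the GUCY2Cmed library of mouse 12, 14 or 15 (0.0104, 0.0133 and 0.0126). It was also lost in edgeR with the mouse as block (0.0124) and without mice 12 and 15 (0.0169).

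Atp6v1c2 encodes an isoform of subunit C, the clasp between the sectors, that is restricted to few tissues. It was low, at 3.97, 3.68, 2.50, 9.33 and 3.02 cpm in GUCY2Chi and 0.749, 0, 0.360, 0.225 and 0 cpm in GUCY2Cmed libraries. The groups did not overlap, and mouse 14 was the highest. In GUCY2Cmed cells only the library of mouse 2 was above 0.5 cpm, so the gene passed the filter only through the GUCY2Chi libraries. Its direction was thus favoured on entry to the test. On the log2 scale the groups differed by 4.05 (SE 0.81, adjusted p = 0.00285 by edgeR). With the mouse as block the adjusted p was 0.0119, and without mice 12 and 15 it was 0.0157. The gene shares its last 50 bases with Pdia6, on the other strand, which had 74841 counts in all against 338 for Atp6v1c2, and without strand the reads of that stretch cannot be told apart. Pdia6 itself was at 639 ± 145 cpm (SD, n = 5) against 451 ± 164 cpm (SD, n = 5) and did not pass (log2 fold change 0.50, adjusted p = 0.181).

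The other V1 genes tested had log2 fold changes from 0.15 to 0.56 and did not pass. Atp6v1a, the catalytic A subunit, had 108 ± 28.3 cpm (SD, n = 5) in GUCY2Chi and 72.8 ± 16.6 cpm (SD, n = 5) in GUCY2Cmed cells, and was higher in 5 of 5 mice (adjusted p = 0.0673). Atp6v1e1, the only E subunit gene above 2 counts in any library, had 349 ± 74.3 against 256 ± 17.6 cpm without overlap (log2 fold change 0.45, adjusted p = 0.0639). For the rotor subunits, Atp6v1f was higher in 5 of 5 mice (0.56, adjusted p = 0.0289) and Atp6v1d in 4 of 5 (0.19, adjusted p = 0.378). Atp6v1h, the regulatory H subunit, differed by 0.49 (adjusted p = 0.0673), and Atp6v1c1, the common C subunit, by 0.55 (adjusted p = 0.0276). Without TMM factors Atp6v1c1, Atp6v1e1, Atp6v1f and Atp6v1h passed, with adjusted p from 0.00497 to 0.00535.

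Atp6v1g2, the neuronal G isoform, showed no steady direction. It ranged from 10.96 to 251 cpm in GUCY2Chi and from 5.06 to 124 cpm in GUCY2Cmed libraries, and its fold change turned sign among the fits (0.15 in edgeR, -0.36 with the mouse as block). Its level was 15.2% to 31.5% of the summed level of 13 forebrain neuron genes, although it varied 49.6-fold between libraries. The same held for Slc30a3, which encodes the zinc transporter of glutamatergic synaptic vesicles. Slc30a3 stood at 1% to 1.82% of that sum while it varied 169-fold. Its lowest level was 0.161 cpm, in the GUCY2Cmed library of mouse 7, so the 169-fold and the 1% rest on few reads. Among the libraries, the GUCY2Chi library of mouse 15 had the highest sum (1492 cpm) and the GUCY2Cmed library of mouse 7 the lowest (16.1 cpm). A gene of the same list, Ppp1r1b, was left out of this sum after its values were seen, because it was lower in GUCY2Chi cells (147 ± 86.8 against 540.2 ± 130.4 cpm). With Ppp1r1b in the sum the shares were not steady, at 0.655% to 14.7% for Atp6v1g2 and 0.0208% to 1.598% for Slc30a3. Of the other members set against the sum of 13 genes, Slc39a10 varied more as a share (19.4-fold) than as a level (5.68-fold), and the share of Atp6v0c varied 7.56-fold while its level varied 57.3-fold. The lowest Atp6v0c level, 0.0803 cpm in the GUCY2Cmed library of mouse 7, likewise rests on few reads.

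**Figure D2:**
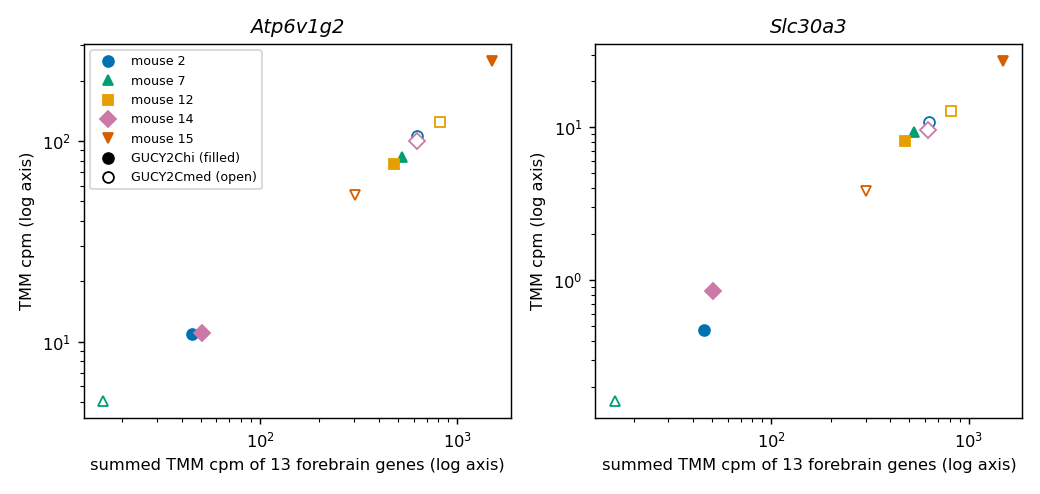
Levels of Atp6v1g2 and Slc30a3 in each library (TMM cpm, log axis) against the summed level of 13 forebrain neuron genes, Ppp1r1b left out (log axis); filled points are GUCY2Chi and open points GUCY2Cmed libraries. Both genes rise with the sum across the 10 libraries, from 5.06 to 251 cpm for Atp6v1g2, and the groups are intermingled.

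In the V0 sector 7 genes were tested, of which 1 was higher and 1 lower. Fold changes lay above 0 for 5 of the 7. Atp6v0b encodes c″, a subunit of the proton-carrying ring, and lies on chromosome 4 from 117884326 to 117887333 (ENSMUSG00000033379), next to the promoter shown above. It was at 382, 310, 409.5, 584 and 377 cpm in GUCY2Chi and 206, 216, 281, 256 and 243 cpm in GUCY2Cmed libraries. The groups did not overlap. GUCY2Chi cells exceeded GUCY2Cmed cells by 0.78 on the log2 scale (SE 0.20, adjusted p = 0.00979 by edgeR), just under the threshold. Leaving out single libraries lost the call 7 times in 10, namely without the GUCY2Chi library of mouse 2, 12 or 14 (adjusted p of 0.0120, 0.0159 and 0.0205) or the GUCY2Cmed library of mouse 2, 7, 14 or 15 (0.0168, 0.0240, 0.0219 and 0.0224). It was lost as well with the mouse as block (0.0185), with RLE factors (0.0102) and without mice 12 and 15 (0.0322).

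Atp6v0a2 was the pump gene that fell. It encodes the a2 isoform of the large membrane subunit, found in Golgi and endosomes, and lies on chromosome 5 from 124628576 to 124724455 (ENSMUSG00000038023). Its levels were 50.0, 36.3, 73.2, 39.8 and 74.6 cpm in GUCY2Chi and 169, 132, 134, 151 and 178 cpm in GUCY2Cmed libraries. Every GUCY2Chi library was below every GUCY2Cmed library. The difference on the log2 scale was -1.48 (SE 0.23, adjusted p = 6.94e-04 by edgeR), and the call stood whichever library was left out, with the block (adjusted p = 0.00341) and without mice 12 and 15 (4.55e-04).

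Because subunit a has several isoforms, their shares were compared within each library, as a percentage of the family's summed FPKM, by exact two-sided permutation tests over 6 isoforms in 4 families. Isoforms of a family share a total, so their shares are not independent. Atp6v0a1, the a1 isoform of synaptic and secretory vesicles, made up 33.1%, 48.9%, 35.5%, 47.2% and 35.7% of the a subunits in GUCY2Chi and 19.5%, 9.87%, 19.9%, 17.4% and 18.4% in GUCY2Cmed libraries. Its share was higher in every GUCY2Chi library, by 23.1 percentage points (exact permutation test, p = 0.00794, adjusted p = 0.0159). The share of Atp6v0a2 was 43.1% ± 9.96 (SD, n = 5) against 73.0% ± 2.82 (SD, n = 5), also without overlap (exact permutation test, adjusted p = 0.0159). Tcirg1, the a3 isoform of lysosomes, had 16.7% ± 4.84 against 9.99% ± 1.87 (exact permutation test, p = 0.0238, adjusted p = 0.0286), with overlap. For Tcirg1 the adjusted p rose to 0.0571 without the GUCY2Chi library of mouse 2, 7, 12 or 14 or the GUCY2Cmed library of mouse 2, 12 or 14 (permutation tests). The levels behind these shares differed in kind. Atp6v0a1 had 53.9 ± 8.26 against 39.5 ± 12.8 cpm (log2 fold change 0.45, adjusted p = 0.181 by edgeR) and Tcirg1 15.3 ± 3.03 against 15.6 ± 2.75 cpm (-0.03, adjusted p = 0.944), so of the 3 isoforms Atp6v0a2 was the one called. Atp6v0a4, the a4 isoform of kidney, had at most 2 counts in any library.

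Of the small e subunits, Atp6v0e made up 57.3% ± 6.56 (SD, n = 5) in GUCY2Chi and 69.9% ± 5.54 (SD, n = 5) in GUCY2Cmed cells, the rest being Atp6v0e2 (exact permutation test, p = 0.0159, adjusted p = 0.0238). Neither gene passed in the fit, with log2 fold changes of -0.25 (adjusted p = 0.415) and 0.49 (adjusted p = 0.0925), the former being 0.0185 without TMM factors (adjusted p = 0.947). Atp6v1c1 made up 96.6% ± 1.28 against 99.7% ± 0.397 of subunit C (exact permutation test, adjusted p = 0.0159), the remainder being the low Atp6v1c2 with its overlapping neighbour. For subunit G the share of Atp6v1g1 was 80.5% ± 20.003 against 70.2% ± 17.1 (exact permutation test, p = 0.405), with Atp6v1g2 varying as described above. Paired by mouse, 5 pairs allow no p below 0.0625, and 3 mice against 3 cannot reach 0.05 either, so these designs cannot repeat the calls.

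**Figure D3:**
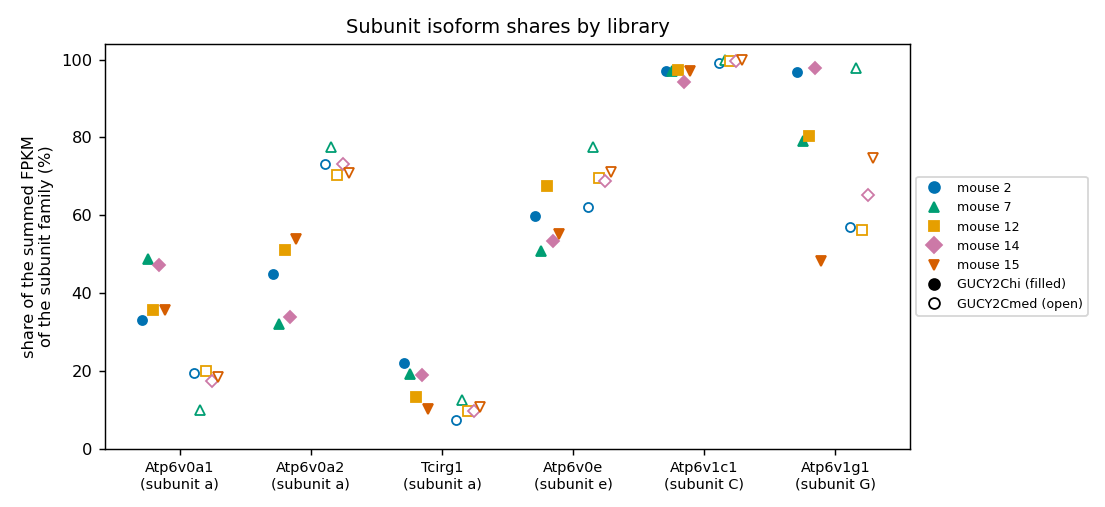
Share of an isoform in the summed FPKM of its subunit family (%), by library; filled points are GUCY2Chi and open points GUCY2Cmed libraries. The share of Atp6v0a1 is 33.1% to 48.9% in GUCY2Chi and 9.87% to 19.9% in GUCY2Cmed libraries, and that of Atp6v0a2 is lower in every GUCY2Chi library.

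Atp6v0c, which encodes the main subunit of the proton-carrying ring, had 1.72 ± 1.68 against 1.70 ± 1.18 cpm and gave no call (adjusted p = 0.989). Its processed pseudogene Atp6v0c-ps2 had 66.5 ± 23.4 against 44.6 ± 9.30 cpm (log2 fold change 0.58, adjusted p = 0.0830). The copies are near-identical, so the counting could have split their reads. Gm43796, a protein-coding gene on the same strand with 0 counts, also overlaps Atp6v0c over 5837 bases. Reads that fall in both cannot be told apart. The level of Atp6v0c is therefore uncertain, and the part of each was not tested. Summed with its pseudogenes, the log2 fold change was 0.56 (adjusted p = 0.0758). Atp6v0d1, which joins the ring to the V1 rotor, had 58.3 ± 11.9 against 40.5 ± 10.8 cpm (0.52, adjusted p = 0.0925), and its osteoclast and kidney partner Atp6v0d2 had 1 count in all. Atp6v1e2 and Atp6v1g3 had at most 2 counts in a library and Atp6v1fnb had 0.

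Atp6ap1 and Atp6ap2 encode accessory proteins of V0 that take part in its assembly and in its routing through the secretory pathway. Atp6ap1, on chromosome X from 74297097 to 74304721 (ENSMUSG00000019087), was at 296, 262, 279, 384 and 230.4 cpm in GUCY2Chi and 113, 121, 133, 135 and 165 cpm in GUCY2Cmed libraries. The groups did not overlap. On the log2 scale the groups differed by 1.12 (SE 0.18, adjusted p = 9.24e-04 by edgeR), and the call stood whichever library was left out, with the block (adjusted p = 0.00766) and without mice 12 and 15 (0.00229). Atp6ap2, also known as the prorenin receptor, had 294 ± 72.05 against 206 ± 21.5 cpm, likewise without overlap, and did not pass (0.51, adjusted p = 0.0513). Atp6ap1l had at most 30 counts in a library and did not pass either (-1.18, adjusted p = 0.385).

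**Figure D4:**
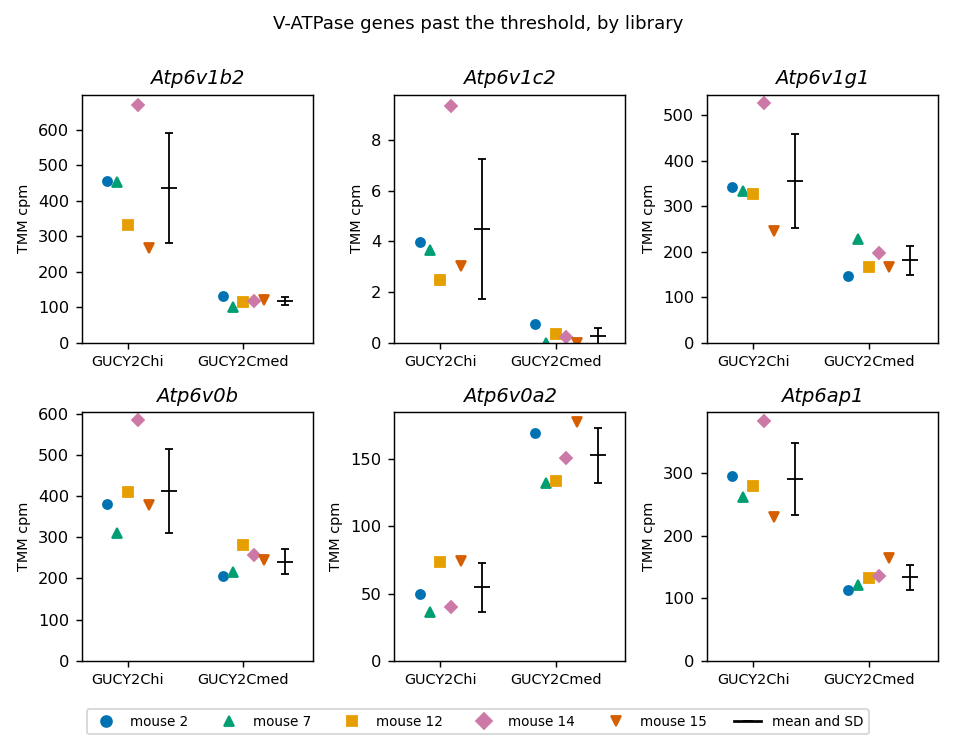
Levels (TMM cpm, axes from 0) of the 6 pump genes that passed the threshold, by library, with the mean and SD of each group; bars that would pass below 0 are cut there. Atp6v0a2 is lower and the other 5 are higher in every GUCY2Chi library than in every GUCY2Cmed library.

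Compared per length within a group, the most abundant pump transcripts in GUCY2Chi cells by mean FPKM were Atp6v0b (624 ± 106), Atp6v1b2 (363 ± 116), Atp6v1e1 (345 ± 58.6) and Atp6v1g1 (341 ± 78.8). The last 3 did not differ beyond their SD. In GUCY2Cmed cells the order was Atp6v0b (303 ± 33.1), Atp6v1e1 (210 ± 16.1), Atp6v0e (158 ± 21.6) and Atp6v1f (156.5 ± 33.3), of which the last 2 did not differ beyond their SD, and Atp6v1b2 stood at 81.8 ± 10.4.

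A further list held 13 genes, namely the a3 subunit gene Tcirg1, described above, and genes that assemble or regulate the pump. Of these, 4 were higher and 0 lower by edgeR, DESeq2 and limma-voom alike, beside 13.9% and 8.79% of all genes by edgeR. At an unadjusted p under 0.05 the numbers were 6 and 0, beside 25.6% and 21.9%. The median log2 fold change was 0.61, beside 0.09 for all genes. Oxr1, a TLDc protein, had 175 ± 72.7 against 23.7 ± 2.03 cpm (2.89, adjusted p = 2.51e-05), and Rogdi, part of the RAVE complex that joins V1 to V0, 175 ± 70.0 against 26.9 ± 10.7 cpm (2.70, adjusted p = 2.64e-04). Tmem9 (1.56) and the assembly factor Tmem199 (0.96) were the other two. All 4 calls stood whichever library was left out, and with the block. Of 6 vesicular chloride carrier genes, which balance the charge of the pumped protons, Ostm1, the partner of ClC-7, was higher (1.48, adjusted p = 5.11e-04 by edgeR), and 0 were lower, also at an unadjusted p under 0.05, in DESeq2 and in limma-voom (median 0.37). All counts of this kind stand beside the same 13.9% of genes higher and 8.79% lower.

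Transporters that spend the proton gradient had 6 genes tested, of which the amine transporter genes Slc18a1 (4.76) and Slc18a2 (4.92) were higher and 0 lower, the latter also at an unadjusted p under 0.05, in DESeq2 and in limma-voom. Of 30 lysosomal genes, 4 were higher and 0 lower by edgeR (8 and 3 at an unadjusted p under 0.05, 5 and 2 by DESeq2, 3 and 1 by limma-voom), again beside 13.9% and 8.79%, with a median of 0.12 beside 0.09 for all genes. The summed lysosomal level in GUCY2Chi cells was 70.9% to 123% of that in GUCY2Cmed cells of the same mouse. The protease gene Ctsl had 272 ± 99.1 against 22.5 ± 7.61 cpm (3.59, adjusted p = 2.67e-05). Arsb (2.18), Cln3 (1.36) and Gla (1.03) were the others, of which Gla kept its call in 2 of the 10 leave-one-out fits, those without the GUCY2Chi library of mouse 7 or 15 (0.0118 to 0.0209 in the others), and in neither the block fit (0.0197) nor that without mice 12 and 15 (0.0558). With the block Cln3 was lost as well (0.0153).

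In the SLC39 family 13 genes were tested, and 4 were higher and 1 lower in GUCY2Chi cells. The 4 that rose were at low levels in GUCY2Cmed cells, and each call stood whichever library was left out, with the block and without mice 12 and 15. Their summed family level nevertheless lay at 44.96%, 44.6%, 66.0%, 43.3% and 55.5% of that in GUCY2Cmed cells of the same mouse, since its most abundant members were at lower levels. Without TMM factors the share was 48.0% to 80.5%.

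Slc39a2 (ENSMUSG00000072572, chromosome 14 from 51892889 to 51896745) encodes the plasma membrane transporter ZIP2. It was at 15.3, 14.2, 4.16, 11.6 and 3.78 cpm in GUCY2Chi and at 0.281 to 0.723 cpm in GUCY2Cmed libraries. All GUCY2Chi libraries were higher, with mice 12 and 15 lowest among them. GUCY2Chi cells exceeded GUCY2Cmed cells by 4.16 on the log2 scale (SE 0.50, adjusted p = 1.41e-04 by edgeR). The gene shares 151 bases with Mettl17 on the same strand, whose level was 13.3 ± 5.13 against 11.5 ± 2.90 cpm (0.22, adjusted p = 0.596).

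Slc39a6 (ENSMUSG00000024270) encodes ZIP6, a plasma membrane transporter. Its levels were 27.0, 23.3, 14.4, 28.9 and 11.1 cpm in GUCY2Chi and 0.856 to 2.72 cpm in GUCY2Cmed libraries, a difference of 3.51 on the log2 scale (SE 0.42, adjusted p = 1.22e-04 by edgeR). As for Slc39a2, mice 12 and 15 were the lowest of the GUCY2Chi libraries and were still above all of GUCY2Cmed.

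Slc39a8 (ENSMUSG00000053897, chromosome 3 from 135825279 to 135888572) encodes ZIP8, which carries manganese as well as zinc. It was at 41.0, 52.1, 31.6, 24.2 and 23.0 cpm against 4.40, 7.55, 4.75, 2.70 and 8.22 cpm. The groups did not overlap (2.64, SE 0.34, adjusted p = 2.21e-04 by edgeR).

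Slc39a13 (ENSMUSG00000002105, chromosome 2 from 91061791 to 91070417) encodes ZIP13, a transporter of the Golgi and its vesicles. It was at 10.8, 12.3, 7.04, 12.8 and 7.24 cpm against 1.93 to 2.93 cpm (2.03, SE 0.27, adjusted p = 2.34e-04 by edgeR). It overlaps Psmc3 on the other strand over 4579 bases, 215 of them exonic in both by NCBIM37, and Psmc3 had 29521 counts against 890. Psmc3 itself went the other way, at 183 ± 18.9 against 260 ± 52.5 cpm (-0.51, adjusted p = 0.0368).

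Slc39a14 (ENSMUSG00000022094, chromosome 14 from 70303469 to 70351425), which encodes ZIP14, a carrier of manganese, iron and zinc, was the member of the family that fell. Its levels were 15.3, 12.8, 25.2, 7.40 and 32.4 cpm in GUCY2Chi and 64.9, 47.2, 54.4, 33.5 and 84.6 cpm in GUCY2Cmed libraries. The groups came close without overlap, the highest GUCY2Chi library being that of mouse 15. On the log2 scale the groups differed by -1.61 (SE 0.38, adjusted p = 0.00663 by edgeR), and with the block it was -1.72 (adjusted p = 0.00227). Without mice 12 and 15 the difference was -2.03 (adjusted p = 0.00369 by edgeR). The call was lost without the GUCY2Chi library of mouse 2, 7 or 14 (0.0270, 0.0268 and 0.0106), without the GUCY2Cmed library of mouse 2, 12 or 15 (0.0229, 0.0205 and 0.0287), and without TMM factors (0.0204).

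The 2 SLC39 genes with the highest mean FPKM were lower in all 5 mice but missed the threshold. Slc39a4, the intestinal zinc importer, was at 121, 79.4, 256, 139 and 314 cpm in GUCY2Chi and 459, 322, 435, 400.1 and 590.5 cpm in GUCY2Cmed libraries. Slc39a5, the basolateral importer of enterocytes and of pancreatic acinar cells, was at 38.5, 26.6, 171, 41.6 and 151 cpm against 242, 264, 358, 366 and 377 cpm. For each gene the groups did not overlap, and the GUCY2Chi libraries of mice 12 and 15, with the most enterocyte transcripts, were the highest of their group. On the log2 scale the differences were -1.28 (SE 0.35, adjusted p = 0.0145 by edgeR) and -1.91 (SE 0.50, adjusted p = 0.0112). Both genes passed with the mouse as block (0.00762 and 0.00756) and without mice 12 and 15, where the log2 fold changes were -1.80 (adjusted p = 0.00179) and -3.04 (adjusted p = 2.23e-04). Leaving out the GUCY2Chi library of mouse 15 alone was enough for each (0.00397 and 0.00694), as was that of mouse 12 for Slc39a5 (0.00475). All 16 enterocyte markers had fold changes below 0, and 3 of them were called by edgeR (15 at an unadjusted p under 0.05, 14 by DESeq2, 12 by limma-voom and 5 with the block in edgeR), and the part of enterocyte content in these values was not tested. Per unit of the enterocyte sum, Slc39a4 stood at 0.834% to 3.32% in GUCY2Chi and 0.574% to 0.803% in GUCY2Cmed libraries, without overlap, and Slc39a5 stood at 0.482% to 0.993% in GUCY2Chi and 0.324% to 0.555% in GUCY2Cmed libraries.

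**Figure D5:**
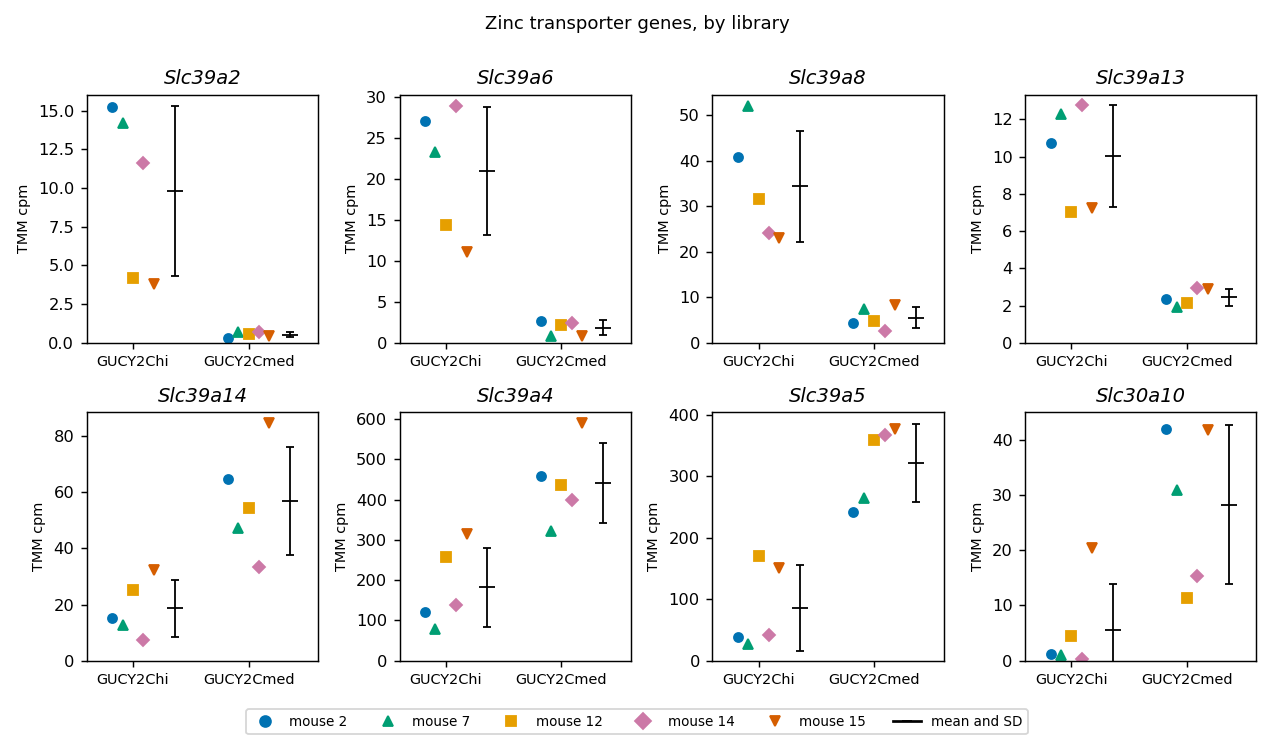
Levels (TMM cpm, axes from 0) of the 5 zinc transporter genes that passed the threshold and of Slc39a4, Slc39a5 and Slc30a10, which did not, by library, with the mean and SD of each group; bars that would pass below 0 are cut there. The first 4 genes are higher in every GUCY2Chi library, and in the other 4 the GUCY2Chi libraries of mice 12 and 15 are the highest of their group.

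The remaining 6 SLC39 genes tested did not pass and lay between -0.77 and 0.57 on the log2 scale. Slc39a9, a Golgi and plasma membrane transporter, was lower in 5 of 5 mice (-0.77, adjusted p = 0.0253) and passed without mice 12 and 15 (0.00697) or without the GUCY2Chi library of mouse 15 alone (0.00823). It shares 127 exonic bases (NCBIM37) with Erh on the other strand, which had 26919 counts against 6549. Slc39a7, which releases zinc from the endoplasmic reticulum, was at 2.97 ± 0.707 against 2.43 ± 0.715 cpm (0.29, adjusted p = 0.498). It overlaps Gm20427 on the same strand over 3306 bases, and 2078 bases are exonic in both by NCBIM37. Gm20427 had 7 counts against 369. Reads of that stretch cannot be told apart, so the level of Slc39a7 is uncertain. Slc39a10 ranged from 8.74 to 26.0 against 4.58 to 16.3 cpm (0.57, adjusted p = 0.265), Slc39a3 lay at 0.36 (0.118), and Slc39a1 (-0.05) and Slc39a11 (-0.27) lay below 0 with TMM and above 0 without it. Slc39a12 had at most 12 counts in a library and was not tested.

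In the SLC30 family 9 genes were tested, 7 of them with fold changes below 0 and a median of -0.65 (6 and -0.38 without TMM factors), and 0 passed in either direction by edgeR. At an unadjusted p under 0.05, 6 of the 9 were lower and 0 higher, beside 21.9% and 25.6% of all genes tested. DESeq2 called 0 of them, limma-voom 1 (lower) and edgeR with the mouse as block 2 (lower), which were Slc30a2 and Slc30a5. The family's summed level in GUCY2Chi cells was 55.6%, 55.5%, 79.4%, 64.2% and 68.5% of that in GUCY2Cmed cells of the same mouse, so it was lower in all 5 mice. Without TMM factors this was 62.4% to 99.3%.

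Slc30a5 and Slc30a6 encode the pair that carries zinc into the early secretory pathway for enzymes such as alkaline phosphatase. Slc30a5, whose promoter is shown above, was at 43.8, 42.0, 61.5, 60.4 and 103 cpm in GUCY2Chi and 92.2, 109.99, 80.8, 119 and 173 cpm in GUCY2Cmed libraries. The groups overlapped through the GUCY2Chi library of mouse 15. The difference on the log2 scale was -0.89 (SE 0.28, adjusted p = 0.0262), and it passed with the block (0.00968), without mice 12 and 15 (0.00470) and without the GUCY2Chi library of mouse 15 alone (0.00363). Slc30a6 was at 28.1 to 49.6 against 52.3 to 80.2 cpm without overlap (-0.65, adjusted p = 0.0209), and per length it was the most abundant of the family, with 41.0 ± 9.07 against 53.2 ± 6.11 FPKM. Slc30a7, which serves the same compartment, was at 25.7 ± 6.90 against 27.3 ± 3.81 cpm (-0.08, adjusted p = 0.802, and above 0 without TMM).

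Slc30a10, a manganese exporter of the apical membrane of enterocytes, was at 1.14, 1.09, 4.39, 0.385 and 20.4 cpm in GUCY2Chi and 41.9, 30.8, 11.4, 15.4 and 41.8 cpm in GUCY2Cmed libraries. It overlapped through mouse 15 only. The gene shares 533 exonic bases (NCBIM37) with Gm2061 on the other strand, which had 352 counts against 2105. On the log2 scale the groups differed by -2.36 (SE 0.89, adjusted p = 0.0555). Without mice 12 and 15 it was -5.03 (adjusted p = 5.12e-04), and without the GUCY2Chi library of mouse 15 alone it was -3.97 (adjusted p = 0.00129).

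Slc30a2, a vesicular transporter of Paneth and gland cells, was at 50.1, 5.49, 23.9, 8.56 and 23.7 against 101, 31.0, 45.9, 37.3 and 59.8 cpm. It was lower in 5 of 5 mice although the groups overlapped. It passed with the mouse as block (-1.57, adjusted p = 0.00748) and not without it (-1.30, adjusted p = 0.0776). Without mice 12 and 15 it did not pass either (-1.40, adjusted p = 0.241 by edgeR). The summed level of 9 Paneth markers was 6196 to 45767 cpm in GUCY2Chi and 6550.2 to 15370 cpm in GUCY2Cmed libraries. Slc30a2 stood at 0.0318% to 0.298% of it in GUCY2Chi and 0.273% to 1.54% in GUCY2Cmed libraries, with a narrow overlap. Slc30a4, of endosomes and vesicles, was lower in 5 of 5 mice (-0.77, adjusted p = 0.0208).

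Slc30a1, the exporter of the plasma membrane, was at 11.9 ± 1.36 against 15.8 ± 0.871 cpm, without overlap (-0.42, adjusted p = 0.0481). Slc30a9, of mitochondria, was at 59.4 ± 4.83 against 52.3 ± 3.65 cpm (0.18, adjusted p = 0.275). Slc30a8, the transporter of the insulin granule, had 9 counts in the 5 GUCY2Chi libraries, at most 5 in any of them, and 0 in GUCY2Cmed cells. It was too low to test, and at this depth its presence in enteroendocrine granules could not be judged.

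Of the genes that buffer or sense zinc, 6 were tested, 2 were higher and 2 lower (median -0.09), beside 13.9% and 8.79% of all genes. Tmem163, a vesicular zinc carrier outside the SLC families, was at 25.7 ± 8.05 against 0.709 ± 0.480 cpm (5.15, adjusted p = 7.51e-05), a call that stood whichever library was left out. Mt4, a metallothionein and the other of the 2 higher, had 0 counts in GUCY2Cmed cells. It passed the filter only through the GUCY2Chi libraries, so its direction was fixed on entry to the test. It was at least 4.25-fold higher, computed against a floor of 3 counts per library, and lost its call with the mouse as block (0.0296). Mt1, the common metallothionein, was at 19.6 ± 7.75 against 60.5 ± 31.1 cpm (-1.62, adjusted p = 0.00801). This call stood in 3 of the 10 leave-one-out fits, those without the GUCY2Chi library of mouse 15 or the GUCY2Cmed library of mouse 7 or 15 (0.0123 to 0.0287 in the others), and was lost with the block (0.0447). Gpr39, a zinc-sensing receptor, was at 7.40 ± 4.59 against 27.3 ± 6.90 cpm (-1.88, adjusted p = 0.00273), stood in 6 of those 10 fits and passed with the block (0.00461). It was lost without the GUCY2Chi library of mouse 2 or 7 (0.0126 and 0.0127) or the GUCY2Cmed library of mouse 2 or 15 (0.0114 and 0.0132).

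Of the 42 genes tested, 11 were higher and 6 lower in every GUCY2Chi library than in every GUCY2Cmed library, beside 16.7% and 13.2% of all genes tested. The 11 were the 9 called genes with Atp6v1e1 and Atp6ap2, and the 6 were Atp6v0a2, Slc39a14, Slc39a4, Slc39a5, Slc30a1 and Slc30a6. Of the 11, Atp6v1c2 passed the filter only through the GUCY2Chi libraries.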

How the data were processed

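RNA of sorted GUCY2Chi and GUCY2Cmed cells was sequenced in 10 libraries, and samples were grouped by their titles. The authors deposited unnormalized read counts for each gene, obtained after alignment with STAR. The authors' labels name the genome build mm9 and the tools limma 3.40.6 and edgeR 3.26.8. All 50 genes lie at their GRCm38.p6 positions in the table and 7 of 49 at their NCBIM37 (mm9) positions, so positions are given on GRCm38. The deposited FPKM values were computed by the provider, and for 42 of the genes the length they imply had a median ratio of 0.393 to the gene length in the table. They served for isoform shares and for comparing genes only. The authors' own comparison and 10 columns of further normalized values per sample were not used, and 3 pseudogenes whose names match were not counted as members.

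Counts were fitted in R 4.3.3 with edgeR 4.0.16 (TMM factors, more than 0.5 cpm in at least 3 libraries, quasi-likelihood test, adjusted p under 0.01), without a mouse term. The biological coefficient of variation was 0.4585. Shares were compared for isoforms with at least 0.5 FPKM in 1 group, by exact permutation tests at 0.05 (scipy 1.17.1). Tables and figures used Python 3.11.15, pandas 2.3.3, numpy 2.4.6 and matplotlib 3.10.9. The titles number the libraries and do not name mice. The numbers were taken as mouse numbers that pair the libraries, since the labels describe 5 mice sorted into both groups. Deviations of same-numbered libraries from their group means correlated at -0.110, -0.223, 0.272, -0.124 and 0.0607 for mice 2, 7, 12, 14 and 15. For the GUCY2Chi libraries, the best match among GUCY2Cmed libraries carried the same number for mouse 12 only. It was 7 for mouse 2, 2 for mouse 7, 7 for mouse 14 and 12 for mouse 15. The counts thus do not show the pairing for those mice, and percentages by mouse and block fits rest on it. No libraries of a group were duplicates, with a chi-square per gene of at least 37.89 between any of them. Bounds at 3 counts cover counting error only. P-values of the main fit and of the permutation tests measure the spread between libraries of a group. That spread holds differences between mice and between sorts alike, and the mice are littermates.

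Alternatives were limma-voom 3.58.1, DESeq2 1.42.0, RLE factors, upper-quartile factors, library size only, a filter of at least 10 counts in every library, no filter, the mouse as replicate block, a forebrain covariate, a threshold of 0.05, shares of raw counts in place of FPKM, mice 12 and 15 left out, and each library left out in turn. The sum of Atp6v0c with its pseudogenes was added after seeing the data. Genes named are all members past the threshold, the main isoform of each subunit, the most abundant transporters, members with at most 3 counts and, in pathway lists, those past the threshold; other members are named to account for all. Of the genes that overlap members past the threshold, Slc18a1, Pdia6, Mettl17 and Psmc3 are named with the results. Of those overlapping other members, Erh, Gm2061, Gm43796 and Gm20427 are. Further overlapping genes are not described. Among them is Gm12841, which shares 243 exonic bases (NCBIM37) with Atp6v0b on the other strand and had 0 counts. The members and lists were chosen with earlier results of these data known.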

Additional observations from a re-analysis of the deposited data

Results flagged for a closer look

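In 96 groups of 5 libraries, 7 had 1 library far from the other 4 by Dixon's criterion, and chance flags about 1 in 20. In GUCY2Chi cells the library of mouse 15 stood above the others for Atp6v0c (4.60 cpm, against 0.269 to 1.51), Atp6v1d (152 cpm, against 93.3 to 109.7), Slc30a10 (20.4 cpm, against 0.385 to 4.39) and Atp6ap1l (1.70 cpm, against 0 to 0.379). In the same library the sum of forebrain genes was 1492 cpm and the enterocyte sum 31367 cpm, the highest of the GUCY2Chi libraries in both. Atp6v1c2 was at 9.33 cpm in the GUCY2Chi library of mouse 14, against 2.50 to 3.97 cpm, and the share of Atp6v1c1 was correspondingly 94.3% there, against 97.1% to 97.2%. The share of Atp6v0a1 was 9.87% in the GUCY2Cmed library of mouse 7, against 17.4% to 19.9%.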

How the results depend on the processing

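The numbers of members higher and lower (9 and 2) became 14 and 1 with library size only. The number lower became 4 with DESeq2 or with the forebrain covariate, 5 with limma-voom, 1 with at least 10 counts in every library, 7 without mice 12 and 15 and 9 at a threshold of 0.05. With the replicate block it became 6 in edgeR and 7 in limma-voom. Pump genes higher (5) became 10 with library size only and 2 with the replicate block in edgeR or without mice 12 and 15. Zinc transporters lower (1) became 0 with library size only or at least 10 counts in every library, 2 with no filter, 3 with DESeq2 or the covariate, 4 with limma-voom, 5 with the replicate block in edgeR, 6 with it in limma-voom or without mice 12 and 15, and 8 at 0.05. Over all genes, the number lower (1381) became 557 with library size only, 2235 with DESeq2, 779 with the block in edgeR and 2767 at 0.05, and the number higher (2186) became 1294 with the block and 3367 at 0.05. Leaving out each library gave 7 to 9 members higher and 1 to 7 lower, 3 to 5 pump genes higher and 1 lower, 4 zinc transporters higher and 0 to 6 lower, and 1636 to 2534 genes higher and 512 to 1609 lower. The 7 and 6 came without the GUCY2Chi library of mouse 15. The 0 zinc transporters lower came without the GUCY2Chi library of mouse 2, 7 or 14 or the GUCY2Cmed library of mouse 2, 12 or 15, and the 3 pump genes higher without the GUCY2Chi library of mouse 14 or the GUCY2Cmed library of mouse 14 or 15. The cause was not tested.

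Shares kept their direction. With the replicate block (sign-flip test) the differences of 23.1, -29.8, 6.76, -3.08 and -12.5 percentage points for Atp6v0a1, Atp6v0a2, Tcirg1, Atp6v1c1 and Atp6v0e were above 0.05, since 5 pairs allow no less than 0.0625. Without mice 12 and 15 they were 27.5, -37.7, 10.2, -3.42 and -14.8, each with an adjusted p of 0.12. Leaving out 1 library gave 20.9 to 24.8, -32.5 to -27.0, 5.42 to 8.38, -3.24 to -2.51 and -15.1 to -10.6, and 5.96 to 18.3 for Atp6v1g1.

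Of single genes, which gave 857 values on the same side, 29 lost and 44 gained the threshold, and 29 turned sign, none of these from a called gene. With library size only, Atp6v0e (0.0185), Slc39a1 (0.23), Slc39a11 (0.0034) and Slc30a7 (0.19) turned. Slc39a1 turned with upper-quartile factors (0.0020), and with at least 10 counts in every library Slc39a1 (0.0765) and Slc30a7 (0.0352) did. Atp6v1g2 turned with limma-voom (-0.17), with the replicate block (-0.36 in edgeR, -0.24 in limma-voom) and without mice 12 and 15 (-0.98), and Slc30a3 with the block in edgeR (-0.31) and without those mice (-0.92), as did Atp6v0c (-0.84) and Slc30a7 (0.0522). Leaving out 1 library gave -0.72 to 0.49 for Atp6v0c, -0.73 to 0.53 for Atp6v1g2, -0.61 to 0.71 for Slc30a3, -0.17 to 0.0624 for Slc30a7 and -0.19 to 0.14 for Slc39a1. In edgeR the block changed no call of a member beyond those given with the results. With it in limma-voom, Atp6v1g1 and Atp6v1c2 kept their calls (adjusted p of 0.0068 and 0.0045) and Slc39a9 passed (0.00919). Depth limits the 8 members with at most 12 counts in every library, which were not tested.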
